A study of Mus musculus with 49 samples.

Results

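The genes described are 37 mouse genes of protein folding and stress signalling in the endoplasmic reticulum, chosen by name from the 42521 entries of an expression table of the hippocampus. All 37 were found, and 35 passed a filter on a mean of at least 0.5 FPKM (fragments scaled to the length of the transcript and to the size of the library), beside 16029 entries in all. The transcription factor Atf3 (mean 0.0961 FPKM) and the pseudokinase Trib3 (mean 0.124 FPKM) did not pass it and were not tested. RNA had been sequenced in 49 libraries from C57BLKS/J mice, an inbred strain, aged 3 months, in a study whose title joins maternal obesity, a diet high in fibre and behaviour of the offspring. No transgene or induced mutation is named for any group. Libraries carry 1 of 6 group codes, which the labels do not spell out. HFD-C holds 9 libraries, and HFD-F, FFD-C, FD-C, CD-F and CD-C hold 8 each. From the title, the first element of a code was read as a maternal diet and the final letter as an offspring diet, so that CD-F against CD-C and HFD-F against HFD-C compare offspring codes under the same maternal code. Each group held 4 libraries marked XX in the sample titles, and the others were marked XY. The titles also start with a prefix, 20 in all, whose meaning is not given. The replicates are separate libraries, and the labels do not say which mice shared a dam or litter.

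Proteins that enter the secretory pathway fold in the endoplasmic reticulum with the help of chaperones such as BiP (Hspa5) and GRP94 (Hsp90b1), of oxidoreductases that form disulfide bonds, and of lectins that hold sugar-bearing chains. When unfolded chains build up, the membrane sensors IRE1 (Ern1), PERK (Eif2ak3) and ATF6 start the unfolded protein response: IRE1 splices the mRNA of Xbp1, PERK slows translation and favours that of Atf4, and ATF6 is cut to release a transcription factor. Spliced Xbp1 and cleaved ATF6 raise chaperone and degradation genes, while Atf4 raises Ddit3, Trib3, Chac1 and Asns. Neurons make large amounts of membrane receptors and secreted peptides, so the system is active in brain under ordinary conditions. Splicing of Xbp1 and cleavage of ATF6 cannot be read from gene levels.

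The 3 promoter windows printed here belong to the members with the smallest p-values in CD-F against CD-C whose window held the endoplasmic reticulum stress element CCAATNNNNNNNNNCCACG, the site at which NF-Y and ATF6 are known to bind. Each holds 300 bases, from 250 before to 50 after the start of the gene, on the strand of the gene, from RefSeq on build GRCm38.p6. They come from the reference mouse and not from C57BLKS/J. Capitals mark the outer bases of each element on either strand. The window of Hsp90b1 lies at chr10:86705395-86705694 on the minus strand, that of Hspa5 at chr2:34771840-34772139 on the plus strand and that of Creld2 at chr15:88819396-88819695 on the plus strand.
Hsp90b1: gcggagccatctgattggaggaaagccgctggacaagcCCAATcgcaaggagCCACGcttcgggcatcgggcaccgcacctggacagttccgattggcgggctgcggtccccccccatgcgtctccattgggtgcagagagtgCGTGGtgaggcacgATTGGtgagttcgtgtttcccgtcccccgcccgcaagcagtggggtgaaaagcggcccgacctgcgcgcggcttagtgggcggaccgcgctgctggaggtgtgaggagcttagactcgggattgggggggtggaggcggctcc
Hspa5: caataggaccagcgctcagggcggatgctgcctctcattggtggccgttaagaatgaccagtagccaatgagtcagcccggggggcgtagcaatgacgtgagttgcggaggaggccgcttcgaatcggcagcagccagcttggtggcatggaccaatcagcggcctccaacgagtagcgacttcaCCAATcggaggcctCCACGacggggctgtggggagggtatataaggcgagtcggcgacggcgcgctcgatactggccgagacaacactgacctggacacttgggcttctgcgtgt
Creld2: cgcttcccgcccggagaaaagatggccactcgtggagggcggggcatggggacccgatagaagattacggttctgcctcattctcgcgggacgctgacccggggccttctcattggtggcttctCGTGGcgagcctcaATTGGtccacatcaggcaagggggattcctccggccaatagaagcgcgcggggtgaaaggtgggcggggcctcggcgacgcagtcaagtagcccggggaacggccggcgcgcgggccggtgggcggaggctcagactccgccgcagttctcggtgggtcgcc
Hsp90b1 held 2 elements, starting 212 and 107 bases before the start, the second of them on the opposite strand. The element of Hspa5 started 65 bases and that of Creld2, on the opposite strand, 126 bases before it.

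Among the 35 tested members, 10 were lower in CD-F than in CD-C and 1 was higher at an adjusted p under 0.05 (limma, Benjamini-Hochberg over the 16029 entries). The background was 8.88% of entries called lower, 4.54% called higher and 13.4% in either direction. Those lower were the chaperones Hspa5 and Hsp90b1, the co-chaperones Sdf2l1, Dnajc3 and Dnajb11, the oxidoreductase family members Pdia4, Creld2, Pdia6 and Erp44, and the transcription factor Xbp1. The higher one was Os9, a lectin of the degradation pathway. Without adjustment 17 members had p under 0.05, which 26.8% of all entries also had. The median difference in log2(FPKM + 0.5) was -0.12 over the 35 members and 0.02 over all entries. Of the members, 23 had a negative difference, against 47.2% of all entries. Folds given below are on the log2(FPKM + 0.5) scale, where differences of low genes are understated, and SE is the limma standard error.

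**Figure D1:**
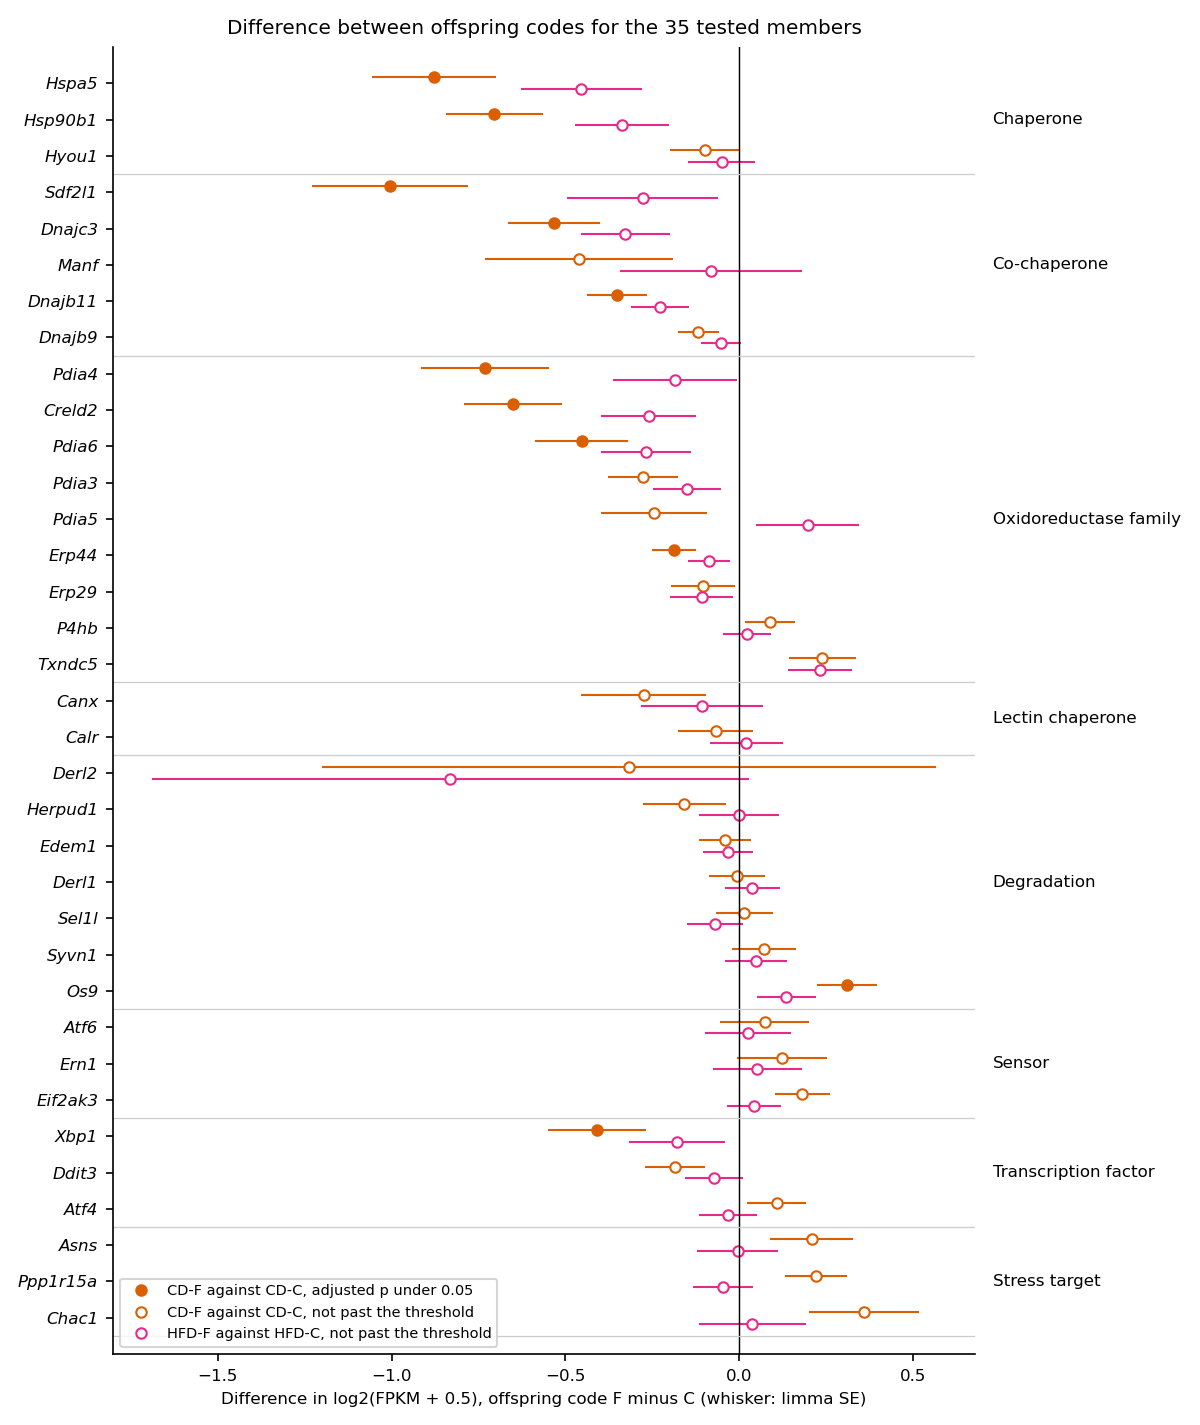
Difference in log2(FPKM + 0.5) between offspring codes F and C for the 35 tested members, ordered by role, with CD dams in orange and HFD dams in pink; points are limma estimates, whiskers 1 SE, and filled points passed an adjusted p of 0.05. The 11 filled points are all from CD-F against CD-C, 10 of them to the left of 0.

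Hspa5 encodes BiP, the main Hsp70 chaperone of the compartment, and lies on chromosome 2 at 34772090 to 34776529. Its level ranged from 189 to 383 FPKM in CD-C (median 231) and from 106 to 182 FPKM in CD-F (median 135). Every CD-F library was below every CD-C library. The difference was -0.88 (SE 0.179, adjusted p = 0.000825), a fold of 0.544. Levels in HFD-F ran from 121 to 226 FPKM (median 143) and those in HFD-C from 143 to 303 FPKM (median 234). FD-C held 133 to 293 FPKM (median 215) and FFD-C 148 to 300 FPKM (median 205), and these 4 groups overlapped one another. Because whole tissue was sequenced, fewer cells of a type and less RNA per cell cannot be told apart for Hspa5 or any other member.

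Hsp90b1 encodes GRP94, the Hsp90 chaperone of the compartment, which folds Toll-like receptors, integrins and insulin-like growth factors. It lies on chromosome 10 at 86690841 to 86705444. Its level was 44.6 to 62.6 FPKM in CD-C (median 48.4) and 20.01 to 44.1 FPKM in CD-F (median 31.5), again without overlap. The difference was -0.70 (SE 0.140, adjusted p = 0.000678), a fold of 0.614. The CD-F libraries lay in 2 ranges, with replicates 1, 2, 4 and 8 between 20.01 and 23.3 FPKM and replicates 3, 5, 6 and 7 between 39.7 and 44.1 FPKM. Replicates 1, 2, 4 and 8 also had the highest FPKM sums over all entries in CD-F. These sums were 1321240 to 1340550 FPKM, against 1258270 to 1295480 FPKM in the others, and a link to the split was not tested. Hsp90b1 levels were 39.99 to 57.5 FPKM in HFD-C (median 49.5) and 32.2 to 43.95 FPKM in HFD-F (median 38.6). FD-C spanned 25.2 to 54.1 FPKM (median 37.7) and FFD-C 35.03 to 52.8 FPKM (median 44.7). The third chaperone, Hyou1, a partner of BiP that exchanges its nucleotide, had a difference of -0.10 (SE 0.101, adjusted p = 0.578) between CD-F and CD-C.

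**Figure D2:**
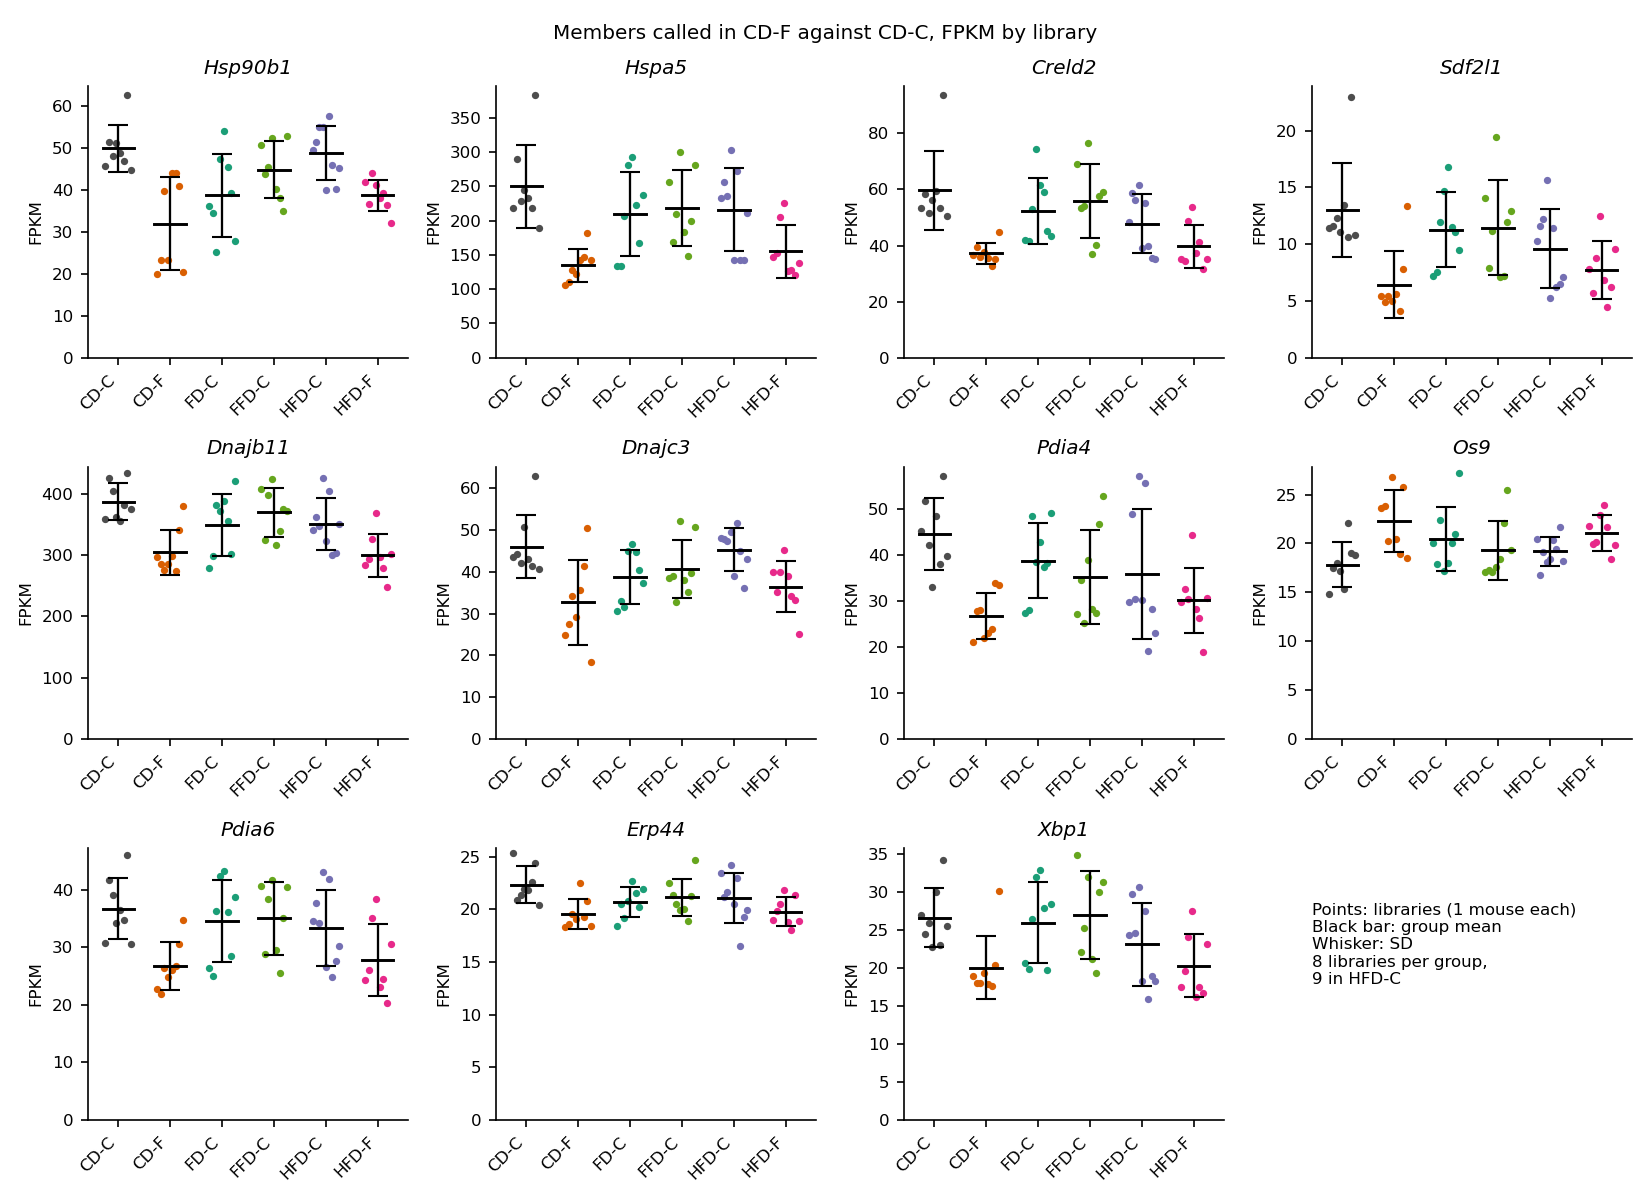
FPKM of the 11 members that passed the test in CD-F against CD-C, by library (points) in the 6 groups, with the group mean (bar) and SD (whisker); axes start at 0. For Hspa5, Hsp90b1 and Creld2 all 8 CD-F libraries lie under the lowest CD-C library, and the FD-C, FFD-C, HFD-C and HFD-F groups overlap one another.

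Creld2 was the third member whose CD-F and CD-C libraries did not overlap. Of the 35 tested members, 3 had every CD-F library below every CD-C library, which held for 1.25% of all entries. The protein is a disulfide isomerase known as a target of ATF6. Its level was 50.6 to 93.8 FPKM in CD-C (median 54.9) and 32.8 to 44.8 FPKM in CD-F (median 36.2). The difference was -0.65 (SE 0.141, adjusted p = 0.00144). HFD-F had 31.7 to 53.7 FPKM (median 36.3) and HFD-C 35.1 to 61.7 FPKM (median 48.5), with overlap. FD-C had 41.6 to 74.4 FPKM (median 49.1) and FFD-C 36.96 to 76.4 FPKM (median 55.7).

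The co-chaperones gave 3 lower members of 5. Sdf2l1, which forms a complex with Dnajb11, had the lowest estimate of all tested members. Its level was 10.6 to 22.97 FPKM in CD-C (median 11.5) and 4.07 to 13.4 FPKM in CD-F (median 5.44). Lower levels were shared by 7 of the 8 CD-F libraries, and replicate 8 lay within the CD-C range. The difference was -1.01 (SE 0.224, adjusted p = 0.00189), a fold of 0.498. Sdf2l1 ran from 5.29 to 15.6 FPKM in HFD-C (median 10.3), 4.50 to 12.5 FPKM in HFD-F (median 7.32), 7.22 to 16.8 FPKM in FD-C (median 11.3) and 7.14 to 19.4 FPKM in FFD-C (median 11.5). Dnajb11, the ERdj3 co-chaperone that brings unfolded chains to BiP, was 356 to 435 FPKM in CD-C (median 379) and 274 to 380 FPKM in CD-F (median 292). These ranges overlapped, although all 8 CD-F libraries lay below the CD-C mean. The difference was -0.35 (SE 0.0853, adjusted p = 0.00424).

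Dnajb11 was 300.4 to 426 FPKM in HFD-C (median 348) and 248 to 368 FPKM in HFD-F (median 295). It was 279 to 421 FPKM in FD-C (median 365) and 317 to 425 FPKM in FFD-C (median 374). Dnajc3 encodes p58IPK, a BiP co-chaperone also known to restrain PERK. Its level was 40.7 to 62.9 FPKM in CD-C (median 43.2) and 18.3 to 50.6 FPKM in CD-F (median 31.7), with a difference of -0.53 (SE 0.132, adjusted p = 0.00498). The 4 CD-F libraries with the lowest Hsp90b1 were also the 4 with the lowest Dnajc3, at 18.3 to 29.1 FPKM. They are the 4 with the highest FPKM sums of the group. Dnajc3 spanned 36.1 to 51.8 FPKM in HFD-C (median 47.4), 24.98 to 45.2 FPKM in HFD-F (median 37.1), 30.6 to 46.6 FPKM in FD-C (median 38.9) and 32.8 to 52.2 FPKM in FFD-C (median 38.8). Manf, a secreted BiP-binding factor, varied widely, from 70.6 to 247 FPKM in CD-C and 55.6 to 119 FPKM in CD-F, and its difference of -0.46 (SE 0.270, adjusted p = 0.278) did not pass. Dnajb9, the ERdj4 co-chaperone that represses IRE1, had a difference of -0.12 (SE 0.0586, adjusted p = 0.190).

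Of the 9 oxidoreductase family members 4 were lower, Creld2 among them. Pdia4, the ERp72 isomerase, was 33.0 to 57.1 FPKM in CD-C (median 43.7) and 21.0 to 33.8 FPKM in CD-F (median 25.8). The ranges met only at the lowest CD-C library. The difference was -0.73 (SE 0.184, adjusted p = 0.0055). The table gives Pdia4 together with the microRNA gene Mir704 in a single entry, so its level is uncertain. Pdia4 reached 19.1 to 57.2 FPKM in HFD-C (median 30.2), 18.96 to 44.3 FPKM in HFD-F (median 29.99), 27.4 to 49.01 FPKM in FD-C (median 38.3) and 25.1 to 52.8 FPKM in FFD-C (median 31.3). Pdia6, the P5 isomerase that binds BiP and attenuates IRE1 and PERK, fell by 0.45 on the log2 scale (SE 0.134, adjusted p = 0.0184). Its level was 30.6 to 46.0 FPKM in CD-C and 21.8 to 34.8 FPKM in CD-F.

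Erp44, which retains client proteins between the endoplasmic reticulum and the Golgi, had the smallest called difference. It was -0.19 (SE 0.0624, adjusted p = 0.0374), but it turned to 0.08 (adjusted p = 0.580) when the trend with transcript GC content was removed from each library. Its level was 20.4 to 25.4 FPKM in CD-C and 18.4 to 22.5 FPKM in CD-F. Pdia3 (ERp57, the partner of calreticulin and calnexin) had -0.28 (adjusted p = 0.0593), and Txndc5 had 0.24 (adjusted p = 0.0892). The other 3 members of the family did not pass either: P4hb, the founding isomerase, was at 0.09, Erp29 at -0.10 and Pdia5 at -0.24. At 336 FPKM, P4hb had the highest mean level of the family, and Pdia5 the lowest at 2.31 FPKM.

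Neither lectin passed. Canx, the membrane-bound calnexin, was 21.5 to 51.1 FPKM in CD-C (median 47.9), 17.95 to 47.5 FPKM in CD-F (median 39.9), 24.1 to 50.4 FPKM in HFD-C (median 47.1) and 19.8 to 52.3 FPKM in HFD-F (median 44.0). In FD-C it was 35.0022 to 48.4 FPKM (median 43.5) and in FFD-C 26.1 to 55.2 FPKM (median 42.8). All 6 ranges overlapped, and CD-F against CD-C gave -0.27 (SE 0.181, adjusted p = 0.346). Calr, the soluble lectin calreticulin, gave -0.07 (adjusted p = 0.746).

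The genes of endoplasmic reticulum-associated degradation gave 1 higher member of 7. Os9, which hands misfolded glycoproteins to the Sel1l and Syvn1 ligase complex, was 14.8 to 22.1 FPKM in CD-C (median 17.8) and 18.5 to 26.8 FPKM in CD-F (median 22.1). All 8 CD-F libraries lay above the CD-C mean, with overlapping ranges. The difference was 0.31 (SE 0.0868, adjusted p = 0.0124). This call was lost with the GC trend removed (0.18, adjusted p = 0.177), with CD-F and CD-C compared alone (adjusted p = 0.0633), with the mean of each title prefix as 1 sample (adjusted p = 0.115) and without the 4 CD-C libraries that held over 1 FPKM of the liver transcript Alb (adjusted p = 0.0600), all in limma. Os9 was 16.8 to 21.7 FPKM in HFD-C (median 19.1), 18.4 to 23.9 FPKM in HFD-F (median 20.9), 17.1 to 27.2 FPKM in FD-C (median 20.1) and 17.1 to 25.5 FPKM in FFD-C (median 18.01). Sel1l (0.02), Syvn1 (0.07), the retrotranslocation factor Derl1 (-0.01) and the mannosidase-like Edem1 (-0.04) had differences near 0, and Herpud1, a stress-induced partner of the ligase, had -0.16 (adjusted p = 0.425). Derl2 stood on 2 entries, and the higher one was used. It was listed at 0 in 4 libraries and reached 22.7 FPKM in CD-C, and its difference of -0.32 had a 95% interval from -2.10 to 1.46.

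None of the 3 sensors passed. Eif2ak3 (PERK) was 5.66 to 7.39 FPKM in CD-C (median 6.34) and 6.73 to 8.18 FPKM in CD-F (median 7.53). All 8 CD-F libraries were above the CD-C mean, but the difference of 0.18 (SE 0.0788) had an adjusted p of 0.122. Eif2ak3 was 6.17 to 8.37 FPKM in HFD-C (median 6.85), 5.99 to 8.31 FPKM in HFD-F (median 7.26), 5.55 to 8.18 FPKM in FD-C (median 6.79) and 5.50 to 8.08 FPKM in FFD-C (median 6.73). Ern1 had 0.12 (SE 0.130), in an entry that also names Icam2, and Atf6 had 0.07 (SE 0.129).

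Among the transcription factors, Xbp1 was 22.8 to 34.3 FPKM in CD-C (median 25.7) and 17.6 to 30.1 FPKM in CD-F (median 18.5). Replicate 8 of CD-F stood at 30.1 FPKM, while the other 7 lay at 20.4 FPKM or less. The difference was -0.41 (SE 0.141, adjusted p = 0.0446), and leaving out single libraries moved the adjusted p past 0.05 in 13 of 16 cases, to at most 0.0930 without CD-C replicate 7. Xbp1 was 15.9 to 30.7 FPKM in HFD-C (median 24.3), 16.1 to 27.5 FPKM in HFD-F (median 18.6), 19.8 to 32.9 FPKM in FD-C (median 27.2) and 19.3 to 34.9 FPKM in FFD-C (median 27.6). Atf4, in an entry shared with Mgat3, LOC108168246 and Mief1, had 0.11 (adjusted p = 0.447). Ddit3 (CHOP), in an entry shared with Gm20492, had -0.18 (adjusted p = 0.153). These shared entries make the level of either gene uncertain. Atf3 was at most 0.205 FPKM in any library.

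The stress targets downstream of Atf4 and Ddit3 had positive differences that did not pass. Ppp1r15a (GADD34, the phosphatase subunit that reverses PERK signalling) was 11.4 to 14.3 FPKM in CD-C (median 12.4) and 10.7 to 18.6 FPKM in CD-F (median 14.7), giving 0.22 (SE 0.0890, adjusted p = 0.0933). Leaving out CD-F replicate 6 or replicate 5 brought the adjusted p to 0.0150 or 0.0410. Ppp1r15a was 10.8 to 13.0 FPKM in HFD-C (median 12.7), 10.05 to 13.1 FPKM in HFD-F (median 11.9), 11.4 to 17.99 FPKM in FD-C (median 13.0) and 10.1 to 16.1 FPKM in FFD-C (median 13.1). Chac1, a glutathione-degrading enzyme, had 0.36 (SE 0.159, adjusted p = 0.130). Asns, asparagine synthetase, had 0.21 (SE 0.120, adjusted p = 0.267). Trib3 stayed at or below 0.387 FPKM in all libraries.

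Offspring code F against C under HFD dams gave no called member of 35, with 6 at an unadjusted p under 0.05 and a smallest adjusted p of 0.143 for Dnajb11 (limma). The background there was 1.67% of entries called and 16.6% at unadjusted p under 0.05. This comparison shares no library with CD-F against CD-C. The 10 members that fell in CD-F all had negative differences in HFD-F against HFD-C, with a median of -0.26. The same was true of 98.4% of all 1423 entries called lower in CD-F, whose median was also -0.26. Differences in both comparisons rose with the GC content of transcripts (Spearman correlation 0.46 under HFD dams and 0.51 under CD dams). The part of this trend in the shared direction was not tested. Hspa5 had -0.45 (SE 0.174, adjusted p = 0.168), Hsp90b1 -0.34 (SE 0.136, adjusted p = 0.194) and Dnajc3 -0.33 (SE 0.129, adjusted p = 0.181). Os9 had 0.14 (SE 0.0844, adjusted p = 0.438), and Txndc5, a thioredoxin-domain oxidoreductase, 0.23 (SE 0.0931, adjusted p = 0.185).

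The test of the difference between the offspring effects under the HFD and CD codes called 0 members and 0% of entries (limma). At unadjusted p under 0.05 it had 4 of 35 members and 2.75% of all entries. The members were Sdf2l1 (0.73, SE 0.312), Pdia4 (0.55, SE 0.257), Pdia5 (0.44, SE 0.212) and Ppp1r15a (-0.27, SE 0.124). The 95% interval for Hspa5 ran from -0.08 to 0.93 and that for Hsp90b1 from -0.03 to 0.76. Averaged over both maternal codes, an alternative added after the data had been seen, the offspring code gave 11 lower members and 2 higher ones. The 10 fallen members were joined by Pdia3 (-0.21, adjusted p = 0.0238), and Os9 by Txndc5 (0.24, adjusted p = 0.00820). In that average 21.7% of all entries were called.

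The title prefixes bear on the offspring comparisons. CD-C libraries came from 4 prefixes and CD-F libraries from 3 others, so prefix and offspring code cannot be told apart there. With the mean of each prefix as 1 sample, Hsp90b1, Hspa5, Creld2, Dnajc3 and Sdf2l1 were lower in CD-F (adjusted p from 0.00777 to 0.0456) and 0 members were higher, against 5.97% of entries called. HFD-C and HFD-F shared the prefixes HFD2.2, HFD2.5 and HFD3.2. The 3 HFD-C libraries of these prefixes had 142.7 to 143.3 FPKM of Hspa5, whereas the other 6 HFD-C libraries had 212 to 303 FPKM. The 8 HFD-F libraries, all from the shared prefixes, ran from 121 to 226 FPKM. Hsp90b1 was 39.99 to 45.9 FPKM in those 3 HFD-C libraries and 45.1 to 57.5 FPKM in the other 6, with overlap. Sdf2l1 was 5.29 to 6.53 FPKM in the 3 and 7.08 to 15.6 FPKM in the 6. Dnajb11 and Pdia6, like Hspa5 and Sdf2l1, were lower in the 3 without overlap. The share of all entries with such a split is not given, so nothing particular to the members is read from it. For Creld2, as for Hsp90b1, the ranges overlapped (35.5 to 39.7 FPKM in the 3 and 35.1 to 61.7 FPKM in the 6). They also overlapped for Pdia4 (19.1 to 30.2 and 23.1 to 57.2 FPKM), Dnajc3, Erp44 and Xbp1.

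Within prefix, the lower levels in HFD-F were not seen throughout. Of the 10 members that fell in CD-F, 6 were lower in HFD-F than in HFD-C within HFD2.2 (median -0.04), 2 within HFD2.5 (median 0.46) and 8 within HFD3.2 (median -0.13), with 1 HFD-C library in each. In HFD2.2 and HFD2.5 that library was marked XX and the HFD-F libraries XY, and in HFD3.2 the reverse. Mark and offspring code thus cannot be told apart within a prefix. With prefix as a term beside the mark over the HFD libraries, added after the data had been seen, 3 of the 10 had negative differences and the median was 0.08. No member passed, with a smallest adjusted p of 0.880. Hspa5 then had 0.13 (SE 0.128) and Hsp90b1 -0.10 (SE 0.0839). Counts within prefix and with the prefix term are not given for all entries, so nothing particular to the members is read from them. In FD-C the 2 libraries of prefix FD1.2 were also low in Hspa5, at 133 and 134 FPKM, while the other 6 had 168 to 293 FPKM.

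**Figure D3:**
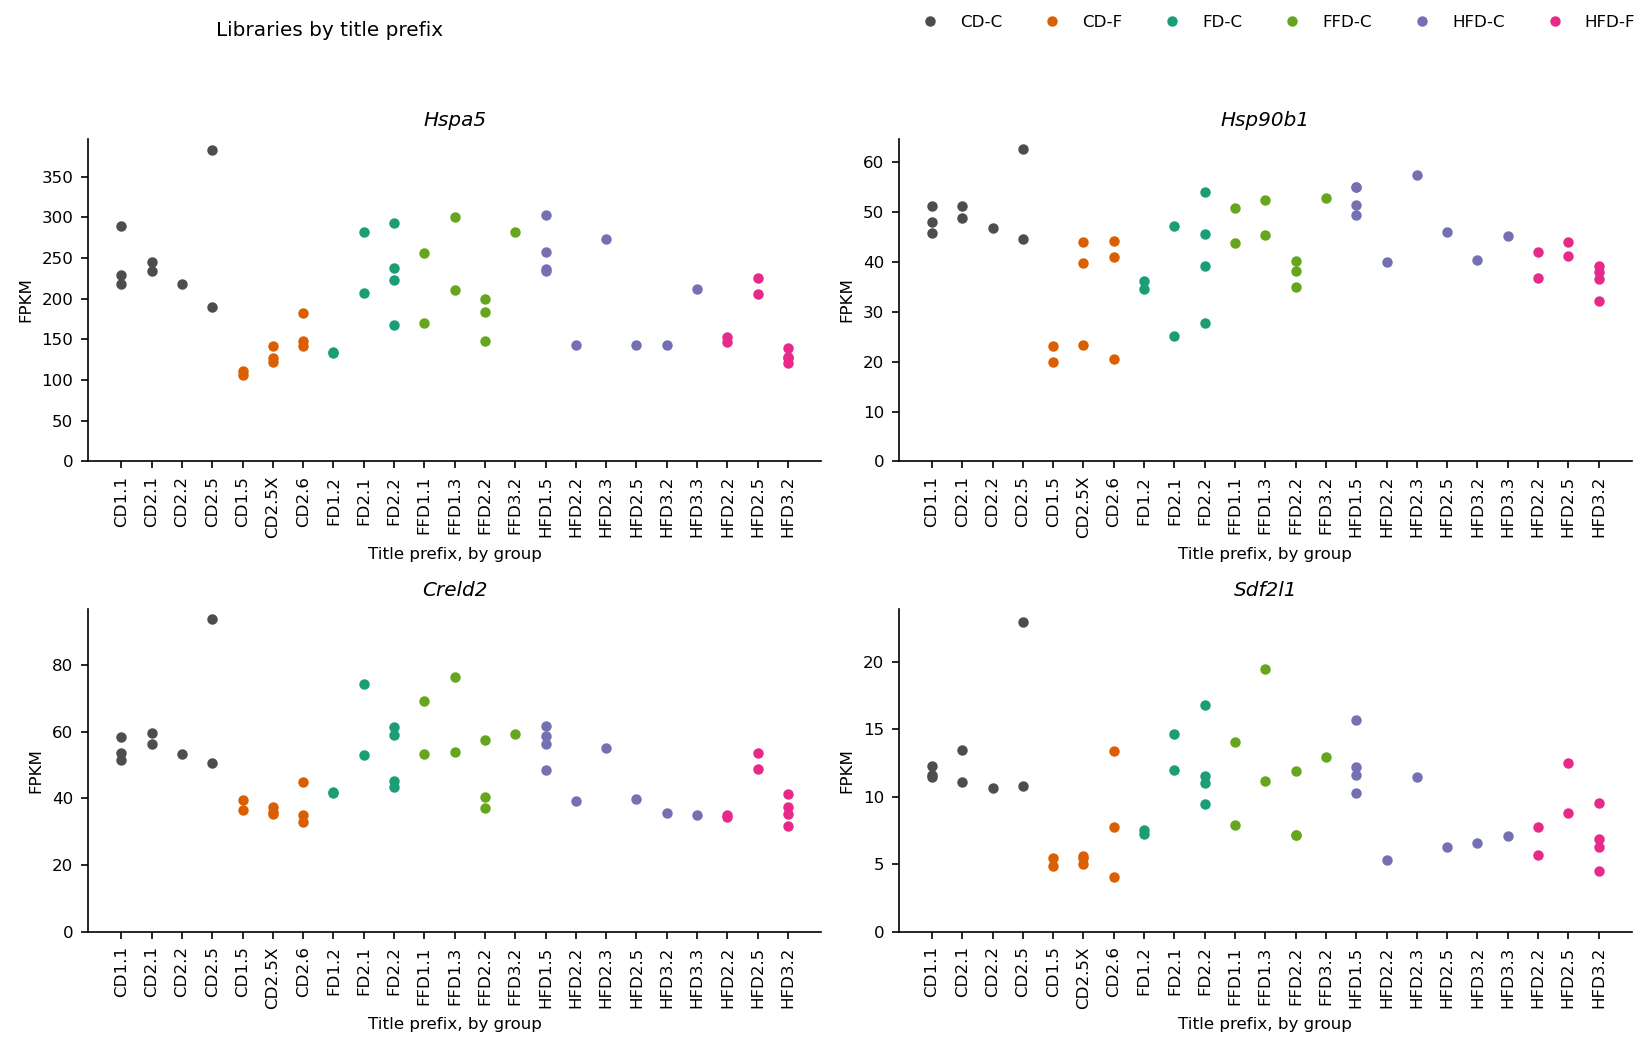
FPKM of Hspa5, Hsp90b1, Creld2 and Sdf2l1 by title prefix and group; each point is a library and axes start at 0. The 3 HFD-C libraries of the prefixes shared with HFD-F lie at 142.7 to 143.3 FPKM for Hspa5, under the other 6 HFD-C libraries, and no prefix holds both CD-C and CD-F libraries.

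The maternal codes gave no called member. HFD-C against CD-C called 0 of 35 members and 0% of entries, with 3 members (Creld2, Pdia4 and Sdf2l1) and 2.36% of entries at unadjusted p under 0.05 in limma. Creld2 had -0.32 (SE 0.137), Pdia4 -0.38 (SE 0.179) and Sdf2l1 -0.45 (SE 0.218) there, and after adjustment the p-values rounded to 1. FD-C against CD-C called 0 members against 0.2% of entries, with 2 members and 9.54% of entries at unadjusted p under 0.05. The members were Hsp90b1 (-0.40, SE 0.140, adjusted p = 0.261) and Os9 (0.19, SE 0.0868, adjusted p = 0.466).

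FFD-C against CD-C called 0 members against 0.00624% of entries, with 0 members and 3.29% of entries at unadjusted p under 0.05. These 3 comparisons and CD-F against CD-C share the CD-C libraries. The median differences of the 10 fallen members were -0.59 in CD-F, -0.19 in FD-C, -0.18 in HFD-C and -0.13 in FFD-C, each against CD-C. The 10 were chosen for lower values in CD-F against these same CD-C libraries, so the medians are a description with no test. FFD-C against HFD-C called 0 members and 0% of entries, with 1 member, Derl2, and 5.96% of entries at unadjusted p under 0.05. HFD-F against CD-F called 0 members and 0% of entries, with Hsp90b1 (0.34, SE 0.140) and Ppp1r15a (-0.29, SE 0.0890) at unadjusted p under 0.05, as were 8.27% of entries. A test for any difference among the 6 groups called 8 of 35 members, against 12% of entries. They were Hsp90b1, Creld2, Hspa5, Dnajb11, Sdf2l1, Dnajc3, Pdia6 and Pdia4, with adjusted p from 0.00156 to 0.0428.

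**Figure D4:**
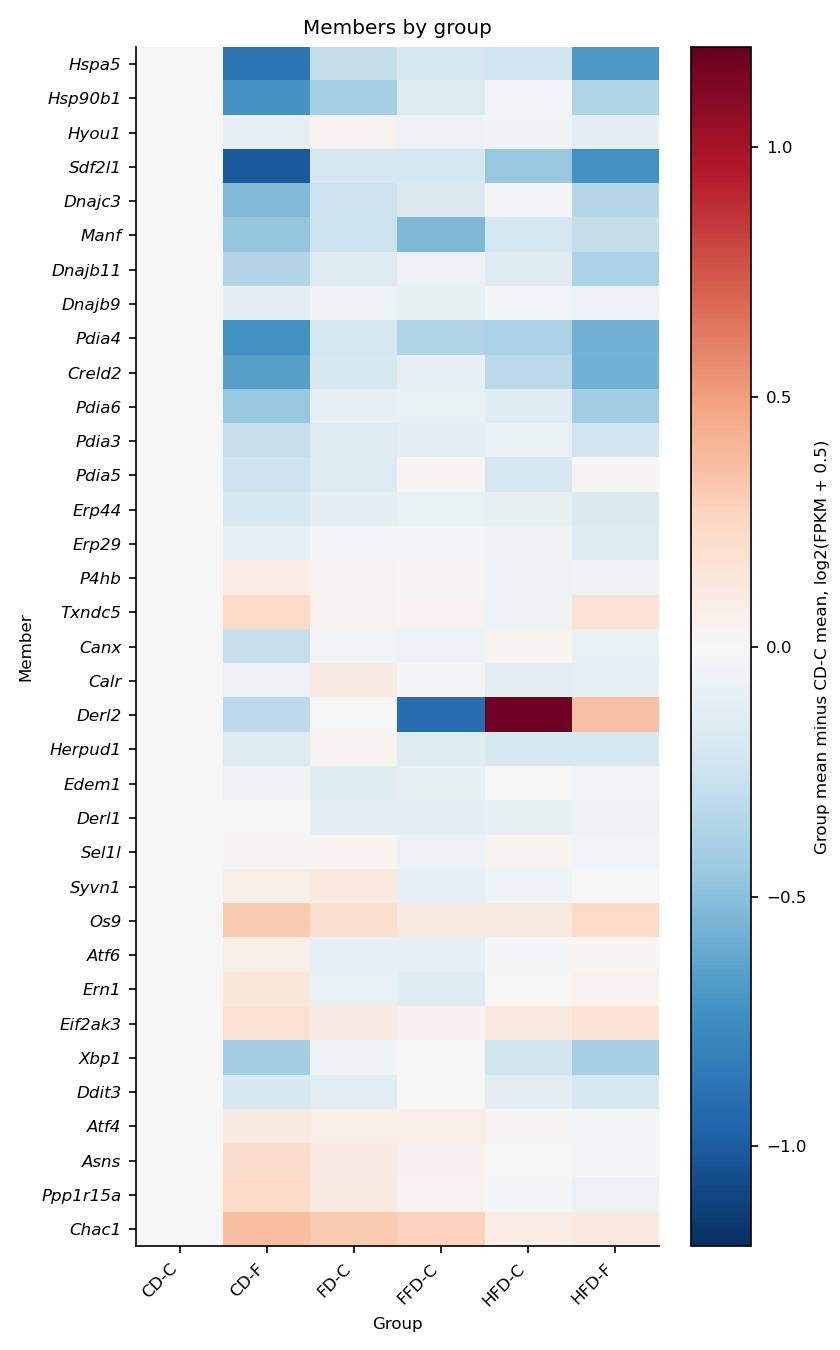
Group mean minus CD-C mean in log2(FPKM + 0.5) for the 35 tested members in the 6 groups (blue lower, red higher). The CD-F column holds the lowest value, -1.01 for Sdf2l1, and the Derl2 row rests on levels that ran from 0 to 22.7 FPKM between libraries.

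The XX and XY marks gave no called member, against 0.112% of entries, with 4 members and 8.25% of entries at unadjusted p under 0.05 (limma). The members were Hsp90b1 (0.17, XX minus XY), Chac1 (-0.20), Atf4 (-0.11) and Derl1 (-0.10), and their smallest adjusted p was 0.580. The 10 fallen members were chosen for lower values over these same CD libraries, so their levels by mark are a description with no test. In the XX libraries Hspa5 averaged 144 FPKM in CD-F and 256 FPKM in CD-C. In the XY libraries it averaged 127 and 245 FPKM. Under HFD dams Hspa5 averaged 129 FPKM in HFD-F and 211 FPKM in HFD-C in the XX libraries, and 182 and 219 FPKM in the XY libraries. The XX libraries of HFD-F all carry prefix HFD3.2.

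Members were also compared by how they varied between libraries once group means were removed. Over 49 libraries the Pearson correlation with Hspa5 was 0.92 for Pdia6, 0.88 for Pdia3, 0.80 for Xbp1, Calr and Dnajb11, 0.79 for Sdf2l1, 0.77 for Creld2 and 0.71 for Herpud1. Calr, Pdia3 and Herpud1 thus followed Hspa5 between libraries of a group, although none passed in CD-F against CD-C. The stress targets had r of 0.19 (Asns), 0.07 (Chac1) and 0.02 (Ppp1r15a) with Hspa5, and Chac1 and Asns had 0.72 with each other. Hsp90b1 had 0.56 with Hspa5, 0.80 with Dnajc3 and 0.20 with Xbp1, while Xbp1 had 0.88 with Sdf2l1.

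The median over the 45 pairs of fallen members was 0.62, over all 595 pairs of tested members 0.21 and over the 300 pairs of the other 25 members 0.17. These values are descriptions without a test, since all pairs share libraries, depth and base composition. Replicate 8 of CD-F had the highest Sdf2l1 and Xbp1 of its group (13.4 and 30.1 FPKM) and the lowest Dnajc3 (18.3 FPKM).

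**Figure D5:**
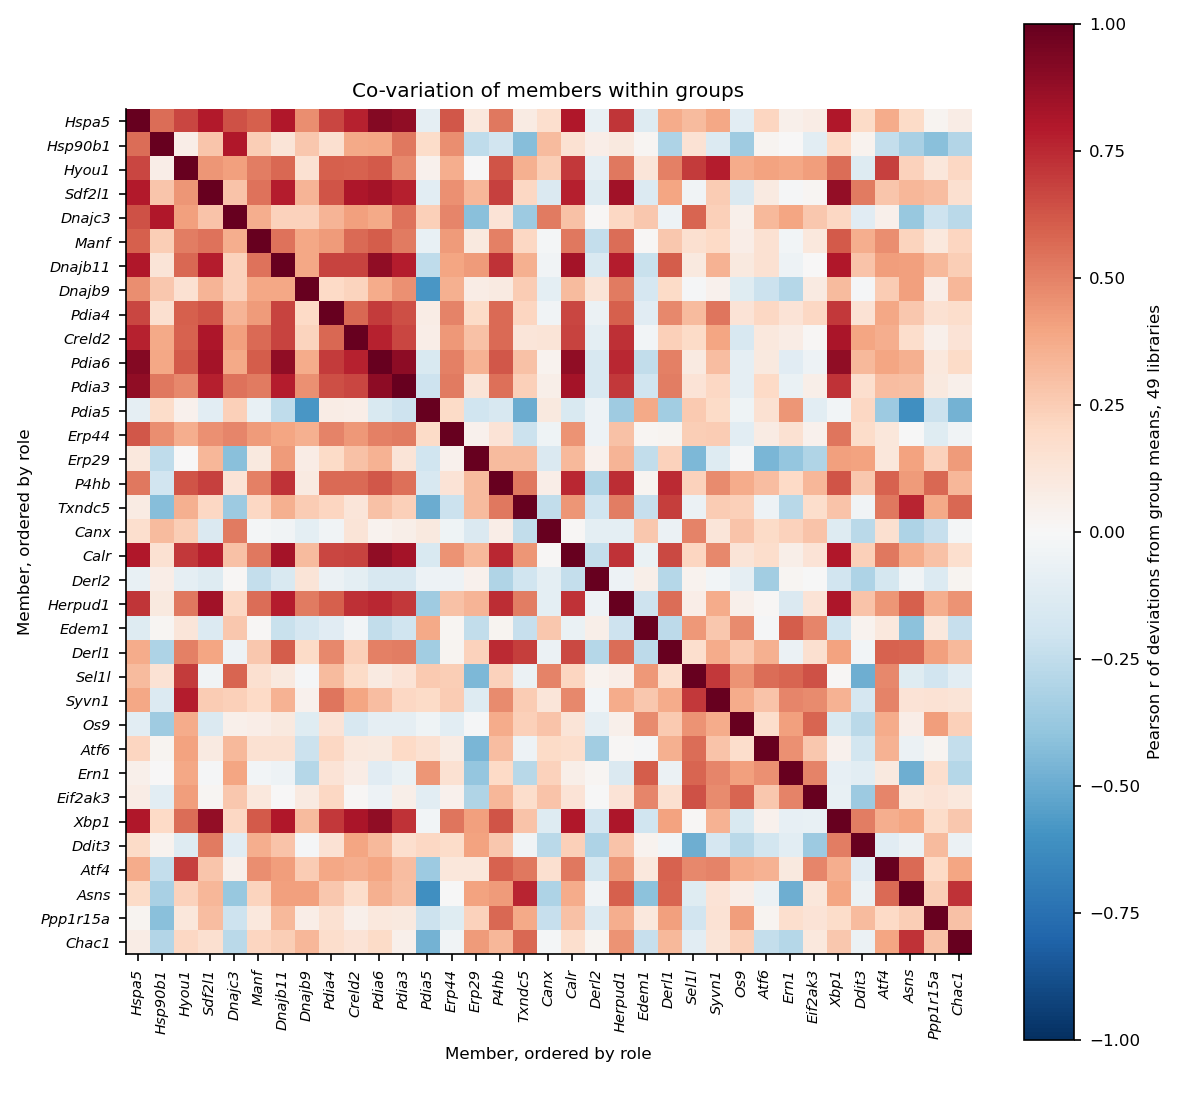
Pearson correlation between the 35 tested members over 49 libraries after removal of group means, on a scale from -1 (blue) to 1 (red), ordered by role. Hspa5, Pdia6, Pdia3, Xbp1, Calr, Dnajb11 and Sdf2l1 have high values with one another, although they do not all stand side by side. The value is 0.92 for Hspa5 and Pdia6, whereas Chac1 and Ppp1r15a are close to 0 with Hspa5.

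Promoter windows from RefSeq were matched for 32 of the 37 members. All 10 fallen members were among them, and Hyou1, Manf, Erp29, Derl1 and Atf6 were not matched. The stress element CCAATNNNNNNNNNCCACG, searched on both strands, stood in the windows of 5 of the 10 fallen members and 3 of the 22 others. The first were Hspa5, Hsp90b1, Dnajc3, Creld2 and Pdia6, and the others Calr, Canx and Syvn1. Atf3 and Trib3, which were not tested, and Os9, which was called higher, are among the 22. The element occurs in 0.119% of 32851 windows and in 0.137% of 27025 genes. Members were chosen by name as genes of this stress response, so a share above that of all windows is no result of these data. The second element ATTGGNCCACG stood at Dnajb11 and Herpud1, and in 0.0365% of windows. The core TGACGTGG of the element bound by Xbp1 and ATF6 was found at Txndc5, and in 0.676% of windows.

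The core TGATGNAA of the Atf4 element stood at 0 of the 10 fallen members and at 6 others, namely Txndc5, Herpud1, Atf3, Trib3, Chac1 and Asns. It occurs in 3.97% of windows. The short parts CCAAT and CCACG, which the first element contains, were in 37.4% and 32.8% of windows. Of 29 further genes with the first element, 10 passed the filter on level, and 0 of these were called in CD-F against CD-C (median 0.01). The 8 members with it had a median of -0.49. A match describes letters in the window and does not show that a factor was bound there.

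Other genes of the compartment were read in CD-F against CD-C beside the members, from lists of related function. Over all entries 8.88% were called lower and 4.54% higher in that comparison, and the lists are small, so nothing particular to a list is read from its count. Of 20 genes of signal recognition and translocation 4 fell and 0 rose. They were Sec11c (-0.36, adjusted p = 0.00305) and Sec11a (-0.26, adjusted p = 0.0282), catalytic subunits of signal peptidase, Sec62 (-0.66, adjusted p = 0.00473) of the translocon, and Srp54a (-0.38, adjusted p = 0.00544), whose entry names 4 other symbols. N-glycosylation gave 2 lower genes of 20, Magt1 (-0.47, adjusted p = 0.0275) and Ostc (-0.30, adjusted p = 0.0360), both of the oligosaccharyltransferase complex. Further degradation genes gave 3 lower of 18, Ubxn4 (-0.27, adjusted p = 0.00289), Rnf139 (-0.19, adjusted p = 0.0130) and Erlin1 (-0.28, adjusted p = 0.0299). The redox list gave 4 lower and 1 higher of 16, with Tmx1 at -0.39 (adjusted p = 0.000604), Txndc15 at -0.28 (adjusted p = 0.00159), Tmx3 at -0.52 (adjusted p = 0.00473) and the sulfhydryl oxidase Qsox1 at 0.36 (adjusted p = 0.0199). The remaining one was Ero1l, the oxidase that recharges the isomerases, at -0.29 (adjusted p = 0.0362).

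The median differences of these 4 lists were -0.14, -0.01, -0.03 and -0.07, against 0.02 over all entries. Regulators of stress signalling gave 1 lower of 24, the translation factor Eif2s1 at -0.41 (adjusted p = 0.00199), which PERK phosphorylates. Targets of Atf4 outside the members gave 2 higher and 2 lower of 32 (median 0.04), with the tRNA synthetases Wars (0.26, adjusted p = 0.0300) and Aars (0.25, adjusted p = 0.0325) higher and Eprs (-0.21, adjusted p = 0.0188) and the transaminase Gpt2 (-0.33, adjusted p = 0.0163) lower. Genes of calcium handling gave 1 higher of 18, the channel Itpr3 (0.54, adjusted p = 0.0494), whose entry names another symbol.

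The chaperones of the cytosol and mitochondria gave 9 lower and 0 higher of 23 (median -0.24). The smallest p-values belonged to the Hsp90 co-chaperones Ptges3 (-0.67, adjusted p = 6.98e-06) and Chordc1 (-1.14, adjusted p = 4.32e-05), Dnaja1 (-0.63, adjusted p = 7.72e-05) and the mitochondrial chaperonin Hspd1 (-0.46, adjusted p = 0.000694). Immediate early genes, which report recent activity, gave 1 higher of 14, Egr1 (0.72, adjusted p = 0.0468).

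Across the series, column sums lay between 1220340 and 1340550 FPKM, and read depth is unknown. Markers of neurons, astrocytes, microglia, oligodendrocytes and endothelium were present in every group, and those of antibody-secreting cells, which are rich in these chaperones, summed to at most 3.90 FPKM in CD-C, CD-F, HFD-C and HFD-F. Choroid plexus markers summed to between 47.1 and 14039 FPKM in CD-C (median 812) and between 40.6 and 19666 FPKM in CD-F (median 2664), with 0 of 8 called. Their list median was 0.46 there and 0.69 in HFD-F against HFD-C. In CD-F against CD-C the list medians were -0.07 for dentate granule, 0.01 for CA1 and -0.02 for fibroblast markers, with 0 called. There they were 0.27 for endothelium, 0.22 for oligodendrocyte and 0.10 for neuron markers, also with 0 called. In HFD-F against HFD-C the endothelium, oligodendrocyte and neuron medians were 0.43, -0.21 and 0.04, with 0 called. Dentate granule markers summed to between 1.86 and 175 FPKM in FFD-C, with a list median of -1.25 against CD-C and 0 called. Of 4 microglial markers 1 was higher in CD-F, Csf1r (0.42, adjusted p = 0.00388), beside Cx3cr1 at -0.81 (adjusted p = 0.361) and a list median of -0.04. Of 4 astrocyte markers 1 was higher, Aldh1l1 (0.33, adjusted p = 0.0265), with a list median of 0.26. The part of these markers in the members' differences was not tested. Albumin (Alb), a liver transcript, exceeded 1 FPKM in 4 CD-C libraries and in no library of another group. Summed liver markers ran from 0.256 to 121 FPKM in CD-C and from 0.333 to 1.47 FPKM in CD-F, and 3 of 4 were called lower. Hspa5 was 189 to 383 FPKM in those 4 CD-C libraries and 218 to 245 FPKM in the other 4. Without them 5 members were lower in CD-F, namely Hsp90b1, Hspa5, Creld2, Dnajc3 and Sdf2l1, with adjusted p from 0.0121 to 0.0442, against 7.7% of entries called.

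Differences between CD-F and CD-C also rose with the GC content of transcripts, with a Spearman correlation of 0.51 across 14728 genes, which are not independent. The correlation was 0.46 in HFD-F against HFD-C and 0.36 in FFD-C against HFD-C. Against CD-C it was 0.45 in FD-C, 0.20 in FFD-C and -0.25 in HFD-C, and HFD-F against CD-F had -0.44. The fallen members had a median GC content of 48.2%, the other tested members 50.6% and all genes 49.9%. After each library was freed of its GC trend, 8 members were called in CD-F against CD-C, all of them among the 10 fallen, against 5.3% of entries called. Hspa5, Hsp90b1, Creld2 and Sdf2l1 were among those 8, and Dnajc3 (-0.34, adjusted p = 0.0601) and Erp44 were not.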

How the data were processed

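Hippocampal RNA was sequenced after phenol-chloroform extraction with BGI-500 libraries, per the labels' protocols. The authors deposited 1 table of FPKM with 42521 entries, and 0 columns lacked a sample. StringTie 1.3.4d, HISAT2, Trimmomatic 0.38 and the build GRCm38.p6 were used, per the submitters' processing notes, which give no roles. The annotation was not given in the sources used here, nor was the strand setting, so genes that overlap, have near-identical copies (Hspa1a and Hspa1b among them) or share an entry are uncertain. FPKM give no read counts, so depth and counting error are unknown, and the number of libraries limits the precision. The labels do not say that libraries come from separate litters, so p-values measure the spread between these libraries. Replicates are numbered in accession order. No 2 libraries were identical (pairwise r from 0.921 to 0.974).

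For each member the entry with the highest mean FPKM was taken. Entries with a mean of at least 0.5 FPKM (16029) were fitted on log2(FPKM + 0.5) in R 4.3.3 with limma 3.58.1 (mean-variance trend), with 6 groups and the XX or XY mark, two-sided, with Benjamini-Hochberg adjustment and a threshold of 0.05. The procedure was tested on simulated data. Alternatives covered the pseudocount, filters, scaling, GC content, the mark, title prefixes, libraries with Alb and each library left out. Levels by group are given for the 8 called members with the smallest p in CD-F against CD-C and for the smallest p in each role. Related lists give up to 4 called genes (for the redox list Ero1l was added after its value was seen, as were the brain markers named). The members and lists were chosen with earlier results of these data known. GC content is that of the longest reference transcript of a symbol, and promoter windows came from RefSeq.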

Additional observations from a re-analysis of the deposited data

Results flagged for a closer look

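Levels of 14 members were examined in 6 groups each (84 in all), and in 9 of them a single library stood far from the rest of its group. Chance flags about 1 in 20 groups. In CD-C, replicate 7 was the highest library for 4 members. Hsp90b1 was 62.6 FPKM there, against 51.3 FPKM in the next library. Creld2 was 93.8 FPKM, against 59.6 FPKM in the next. Sdf2l1 was 22.97 FPKM, against 13.4 FPKM in the next. Dnajc3 was 62.9 FPKM, against 50.7 FPKM in the next. This library also had the highest Hspa5 (383 FPKM), Alb (50.1 FPKM) and Ttr (13327 FPKM) of CD-C, and their part in its levels was not tested. Without it, 8 members were called lower in CD-F against CD-C, with Hsp90b1, Creld2, Sdf2l1 and Dnajc3 among them, and 9 in either direction, against 13.2% of entries.

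In CD-F, replicate 8 had Sdf2l1 at 13.4 FPKM, against 7.78 FPKM in the next library, and Xbp1 at 30.1 FPKM, against 20.4 FPKM. Canx, the calnexin gene, was low in a single library of 3 groups. It was 21.5 FPKM in CD-C replicate 1, where the next library had 44.3 FPKM. It was 24.1 FPKM in HFD-C replicate 4 against 45.4 FPKM, and 19.8 FPKM in HFD-F replicate 8 against 40.95 FPKM.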

How the results depend on the processing

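Hsp90b1, Hspa5, Creld2 and Sdf2l1 kept their direction and an adjusted p under 0.05 under all 30 alternatives to the limma test of CD-F against CD-C. Of these, 16 left out a single library, and 1 was the offspring code averaged over both maternal codes, which also uses HFD libraries. Over 14 named members, 377 of 420 values stayed on their side of the threshold, 40 lost it, 2 gained it and 1 reversed, Erp44 at 0.079 with the GC trend removed. Xbp1 lost its call under 18 alternatives and Erp44 under 11. With the mean of each title prefix as 1 sample, 5 members were called in CD-F against CD-C, all 5 lower, against 5.97% of entries. The test of any difference among groups then called 1 member. Its share over all entries is not given, so nothing is read from that count. Without the libraries with Alb, 5 members were called in CD-F against CD-C, all 5 lower, against 7.7% of entries. Both settings use fewer samples. Leaving out single libraries gave 9 to 11 called members, of which 8 to 10 were lower, in CD-F against CD-C, where 9.72% to 16.2% of entries were called, 6 to 10 in the test of any difference, where 9.43% to 14.5% of entries were called, and 0 in the other comparisons. Os9 lost its call under the alternatives given beside its result, and the cause was not tested. Title prefix as a random block gave 10 called members, against 12.1% of entries, at a consensus correlation of 0.0356. That correlation is shared by all entries, so this setting cannot show how far a single member depends on prefix. The averaged offspring code and the prefix term were chosen after seeing the data.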
